A study of Mus musculus with 12 samples.

Results

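The 8 genes described here encode regulators of mRNA decay: the zinc-finger proteins Zfp36, Zfp36l1 and Zfp36l2, the deadenylation adaptors Btg1 and Btg2, the Regnase family members Zc3h12a and Zc3h12d, and the Roquin gene Rc3h1. They were taken by symbol as 8 of the 24781 rows of the deposited expression table. Invariant natural killer T cells (iNKT cells) carry a T cell receptor for lipid shown on CD1d. They were sorted freshly from mice aged 6 weeks, 100 cells to a library, as TCRbeta+, NK1.1+, CD1d tet+ and CXCR6+. A split on CD244 gave the 4 groups, each of 3 libraries: CD244+ cells (named C2) and CD244- cells (named C1) of the thymus, and the same subsets of the lung. No treatment or altered allele is named in the labels for any group, and strain and sex are not given in the sources used here. The replicates are described as separate library preparations and no animals are named, so the spread that p-values rest on is that between library preparations and may be technical.

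Most short-lived mRNAs are removed by shortening of the poly(A) tail, followed by decapping or by decay from the 3′ end. ZFP36 proteins bind AU-rich elements in the 3′ untranslated region and bring in the CCR4-NOT deadenylase, BTG1 and BTG2 bind the deadenylase subunits CNOT7 and CNOT8, Regnase-1 (Zc3h12a) cuts stem-loops, and Roquin-1 (Rc3h1) binds stem-loops and recruits deadenylases. In T cells these proteins are known for limiting cytokine production and for keeping resting cells quiet, and transcripts of the ZFP36 genes themselves carry AU-rich elements.

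The AU-rich sites are shown because they are the letters that ZFP36 proteins recognise. The core TATTTAT, read on the sense strand, was counted in the longest annotated 3′ untranslated region of each gene (GRCm38, GENCODE M21). Zfp36 held 3 cores in 774 bases, Zfp36l1 held 3 in 1835 bases and Zfp36l2 held 3 in 1822 bases, a number reached by 4.35% of the 4989 tested genes with such a region. Btg2 held 1 core in 2199 bases and Rc3h1 held 2 in 7181 bases, while these letters were not found in the regions of Btg1, Zc3h12a and Zc3h12d. At least 1 core was present in 31.4% of the tested genes, and among genes with a region of similar length in 42.5% for Btg2 and 81.6% for Rc3h1. That length-matched share was 19.1% for Zfp36, 39.5% for Zfp36l1 and 39.0% for Zfp36l2. The 4.35% above is over regions of any length. The window of 30 bases around one site, or in Zfp36 around a pair of sites, is printed 5′ to 3′ on the gene's own strand, with each core in capitals.
Zfp36 (chr7:28376958-28376987, minus strand): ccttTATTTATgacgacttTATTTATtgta
Zfp36l1 (chr12:80108421-80108450, minus strand): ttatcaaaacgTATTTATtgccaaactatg
Zfp36l2 (chr17:84184913-84184942, minus strand): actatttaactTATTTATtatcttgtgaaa
Btg2 (chr1:134077248-134077277, minus strand): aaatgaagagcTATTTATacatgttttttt
Rc3h1 (chr1:160970043-160970072, plus strand): actttactcatTATTTATtgagatgaggag

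Start-site windows were read because Zfp36, Btg2 and several genes examined further on belong to the early response to stimulation. RefSeq windows from 250 bases before to 50 after the start site (GRCm38.p6) matched 7 of the 8 symbols, and Zfp36l2 had no entry. Both strands were searched, and the motifs do not overlap each other in the printed stretches. The EGR motif GCGNGGGCG, present in 5.55% of 32851 windows, matched in Zfp36 and Btg2. The cAMP response element TGACGTCA, present in 1.79% of windows, matched in Btg2, and the AP-1 motif TGANTCA, present in 7.81%, matched in Zfp36l1 and Rc3h1. The serum response element of Fos, present in 0.0639% of windows, was not found in any of the 7. The matches in Zfp36 and Btg2 are printed with the motif in capitals. The Zfp36 stretch lies inside the GENCODE span of the gene (7:28376784-28380253), so its RefSeq start is not the outer end of that span. N stands for any base, and the shares of windows count all of them. Read on the gene's strand, that base was G in Zfp36 and C in Btg2 for the EGR motif. For the AP-1 motif it was T in Zfp36l1 and C in Rc3h1. A match describes letters only.
Zfp36 EGR motif (chr7:28379314-28379343, minus strand): gagctacgccGCGGGGGCGcgtcccggaag
Btg2 cAMP response element (chr1:134079303-134079332, minus strand): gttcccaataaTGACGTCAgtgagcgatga
Btg2 EGR motif (chr1:134079267-134079296, minus strand): cgcctgggagGCGCGGGCGagctggcgggc

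Values are the authors' scaled molecule signal, called units here: each thymus library sums to 26890.5 units and each lung library to 19342.9, so a unit is a larger share of a lung library. Between 29696 and 71789 molecules stood behind a library, fewest in the lung CD244- group (29696 to 32196). The T cell receptor complex genes were detected in every group (11 of 11 in the table), whereas Cd244 itself had 13 molecules over the thymus CD244+ libraries, 2 over the lung CD244+ libraries and 0 in both CD244- groups. The lung CD244+ libraries stood apart. Macrophage and monocyte markers (16 genes, Apoe, C1qa and Lyz2 among them) summed to 68.3, 126 and 122 per 10000 molecules in its libraries 1, 2 and 3. The same sum ran from 0.155 to 1.33 in lung CD244- libraries and from 0 to 0.279 in thymus libraries, where at least 13 of the 16 genes were at 0 in each group. A joint list of dendritic cell and MHC class II genes summed to 49.7 to 128 per 10000 in the lung CD244+ libraries. It summed to at most 0.621 in any other library. Most of the lung CD244+ sum came from H2-Aa (312 molecules over the group), H2-Ab1 (192), H2-Eb1 (208) and Cd74 (473). The rest of the list was low there, with Itgax at 8 molecules, Siglech at 5, Flt3 at 3, Zbtb46 at 1, and Xcr1 and Ccr7 at 0. The sum therefore does not show that dendritic cell genes were high. Neutrophil and B cell markers were at most 1.18 per 10000 everywhere. T cell receptor complex genes summed to 12.9 to 24.2 per 10000 molecules in lung CD244+ libraries against 34.3 to 40.0 in lung CD244- libraries, and to 26.5 to 35.6 in the thymus. Replicates also scattered more in the lung CD244+ group, with a chi-square per degree of freedom of 1.65 to 1.70 between pairs of libraries, against 1.09 to 1.23 in the other groups. In bulk libraries, fewer cells of a type and less RNA per cell cannot be told apart.

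Zfp36 (7:28376784-28380253, minus strand), which encodes tristetraprolin, was the member that varied most on the log scale (SD over the 12 libraries of 1.15 in log2 of value + 1). Its value was 11.1, 11.4 and 13.9 units in lung CD244+ libraries 1, 2 and 3, and 1.30, 1.28 and 0.60 units in the lung CD244- libraries. It was 2.25, 0.42 and 2.37 units in thymus CD244+ libraries and 2.79, 2.41 and 1.79 in thymus CD244- libraries. The 3 lung CD244+ libraries were each higher than all 9 others, and the remaining groups overlapped their neighbours in the order lung CD244-, thymus CD244+, thymus CD244-. Behind these values were 90 molecules over the lung CD244+ group, 5 over lung CD244-, 12 over thymus CD244+ and 17 over thymus CD244-.

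Zfp36l1 (12:80107754-80113013, minus strand) and Zfp36l2 (17:84183931-84187947, minus strand), the paralogs known for guarding lymphocyte quiescence and development, followed other orders. Zfp36l2 measured 41.0, 31.4 and 36.0 units in lung CD244- libraries and 28.5, 16.4 and 15.0 units in lung CD244+ libraries. In the thymus it measured 22.6, 23.3 and 14.7 units in CD244+ libraries and 21.2, 17.7 and 17.4 units in CD244- libraries. The lung CD244- group lay above every other library, and the other groups, with means of 18.8 to 20.2 units, overlapped. Zfp36l1 measured 3.37, 6.78 and 7.60 units in thymus CD244+, 13.2, 7.24 and 6.71 in thymus CD244-, 9.12, 9.62 and 10.2 in lung CD244- and 10.7, 16.8 and 9.40 in lung CD244+ libraries. Each group in that order overlapped the next, and thymus CD244+ lay below both lung groups. The annotation places a gene on the opposite strand at each of these loci (Gm44710 at Zfp36, Gm26669 at Zfp36l1, AC132455.1 at Zfp36l2). The use of strand in counting is not stated, so reads from such a pair cannot be told apart.

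Btg1 and Btg2, antiproliferative genes of resting lymphocytes, varied less. Btg1 (10:96617006-96622809, plus strand) measured 30.1, 30.9 and 28.96 units in lung CD244+ libraries, 36.7, 37.7 and 37.5 in thymus CD244+, 45.6, 35.9 and 43.9 in lung CD244- and 41.0, 40.2 and 49.2 in thymus CD244- libraries. In units lung CD244+ was the lowest group without overlap, and in the thymus and in the lung each CD244+ group stayed under the range of its CD244- group. The order between tissues depends on the scale. Per 10000 molecules of the library, thymus CD244+ was the lowest group (13.7, 14.0 and 14.0), under lung CD244+ (15.6, 16.0 and 15.0). Btg2 (1:134075170-134079120, minus strand) measured 9.77, 16.0 and 12.02 units in lung CD244- libraries and 7.92, 9.10 and 8.65 in lung CD244+ libraries. In the thymus Btg2 ran from 4.12 to 8.90 units in CD244+ libraries and from 4.83 to 8.05 in CD244- libraries, so in units lung CD244- was the only group of the 4 that lay apart. Per 10000 molecules, lung CD244+ (4.09, 4.70 and 4.47) also lay above the thymus libraries (1.53 to 3.31).

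The Regnase and Roquin genes were sparsely detected. Zc3h12a (4:125118423-125127840, minus strand) measured 1.19, 1.36 and 2.63 units in lung CD244+ libraries, a sum of 13 molecules. It had 3 molecules over lung CD244-, 4 over thymus CD244- and 1 over thymus CD244+ libraries, and the highest lung CD244- library (1.30 units) reached into the lung CD244+ range. Rc3h1 (1:160906418-160974978, plus strand) ran from 0.60 to 3.22 units over all 12 libraries, with 5 to 14 molecules a group and overlap between all neighbours. Zc3h12d (10:7832470-7870396, plus strand) had 2 molecules in a thymus CD244- library, 1 in a lung CD244+ library, 1 in a lung CD244- library and 0 in thymus CD244+ cells, where a count of 0 allows up to 3 molecules over the group. It did not exceed 1 unit in 3 libraries and was not tested. These depths resolve no order among the groups for Rc3h1 or Zc3h12d.

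**Figure D1:**
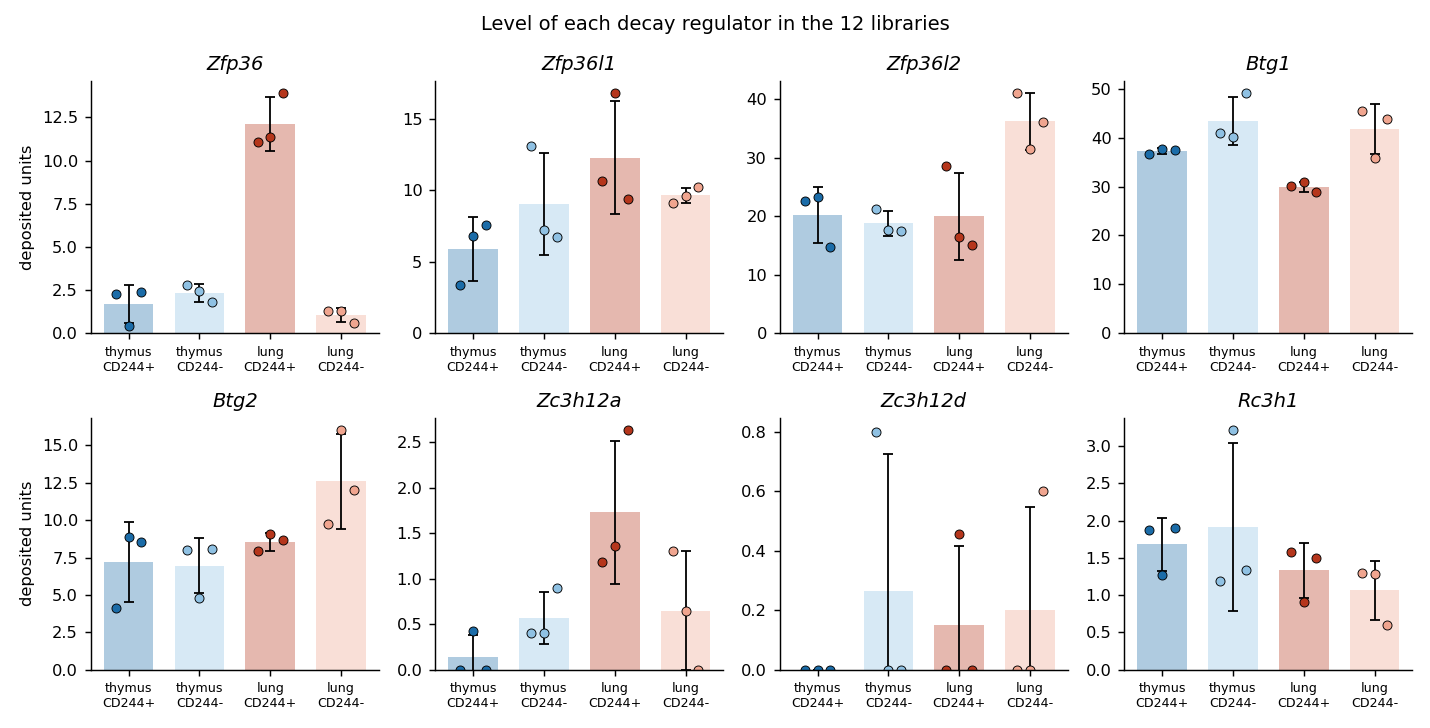
Deposited units (y axes, each starting at 0 with its own scale) of the 8 genes in the 4 groups. Bars are means, error bars are SD with n = 3 (lower ends below 0 are not drawn) and points are libraries; Zfp36 is highest in the 3 lung CD244+ libraries (11.1 to 13.9 units) and Zfp36l2 in the 3 lung CD244- libraries (31.4 to 41.0 units).

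In the lung, CD244+ against CD244- cells, Zfp36 was higher and Zfp36l2 and Btg1 were lower, and the other 4 tested members did not pass the test. Zfp36 differed by 2.68 ± 0.36 (log2 of value + 1, ± SE, limma adjusted p = 9.70e-09). Counted as shares of molecules, the ratio was 11.6 with a 95% counting interval of 4.79 to 36.6. Zfp36l2 differed by -0.87 ± 0.20 (limma adjusted p = 0.000881), a ratio of molecule shares of 0.555 with a counting interval of 0.442 to 0.695. Btg1 differed by -0.46 ± 0.15 (limma adjusted p = 0.0473), a ratio of 0.716 with a counting interval of 0.588 to 0.871. These are 1 member higher and 2 lower of 7 tested, where 5.61% of all 5138 tested genes were called higher and 2.82% lower. Ranges did not overlap for 1 member that was higher (Zfp36) and 3 that were lower (Zfp36l2, Btg1 and Btg2), against 11.6% and 9.75% of tested genes. The median difference of the tested members was 0.18, against -0.01 over all tested genes.

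Among the lung members that missed the threshold, Btg2 differed by -0.49 (95% interval -1.03 to 0.06, limma adjusted p = 0.338) although its ranges did not overlap. Zc3h12a differed by 0.77 (-0.01 to 1.55), Zfp36l1 by 0.28 (-0.27 to 0.83) and Rc3h1 by 0.18 (-0.59 to 0.96). The intervals of Zc3h12a and Rc3h1 each hold a difference of nearly 1 log2 unit, so the data do not show that these genes were alike in the subsets.

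The lung values were also read after scaling every library to its T cell receptor complex genes. This moved the median of all tested genes to 0.69, and 1692 of 5602 genes were called higher and 16 lower in CD244+ cells. Zfp36l2 then differed by 0.21 (limma adjusted p = 0.520) and Btg1 by 0.64 (limma adjusted p = 0.0237), so the signs turned with the common shift and both values remained below that median. On this scale 4 of 7 tested members were called higher and 0 lower. With edgeR on the molecules of 9 libraries Zfp36l2 differed by -0.58 (adjusted p = 0.0541). With lung CD244+ library 1 standing alone for its group, Zfp36l2 differed by -0.33 (limma adjusted p = 0.757). The call for Btg1 was lost when any library was left out except lung CD244- replicate 2, with limma adjusted p from 0.0514 to 0.190. Zfp36 stayed higher at the threshold in all 24 alternatives run, with a largest adjusted p of 0.00129.

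The members were also set against the T cell receptor complex genes of the same library. Per 100 molecules of those 11 genes, Zfp36 had 23.7, 45.5 and 43.5 molecules in lung CD244+ libraries 1, 2 and 3 and 1.96, 1.66 and 0.794 in the lung CD244- libraries. Zfp36l2 had 61.0, 65.5 and 47.1 against 61.8, 40.6 and 47.6, so the lung groups overlapped on this measure, while thymus libraries ran from 18.2 to 29.6. Btg1 had 64.4, 124 and 90.6 against 68.6, 46.4 and 57.9, where lung CD244+ library 1 fell inside the CD244- range. Per 10000 molecules of the library, Zfp36 was 5.73, 5.88 and 7.19 in lung CD244+ libraries 1, 2 and 3, beside macrophage marker sums of 68.3, 126 and 122. The macrophage and monocyte markers were higher in the same comparison in 13 of 13 tested genes, and 3 of 11 T cell receptor complex genes were lower. The tested markers entered the test only through the lung CD244+ libraries, where they are high, so their count is a description. The part of other cells in the values of Zfp36, Zfp36l2 and Btg1 was not tested.

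**Figure D2:**
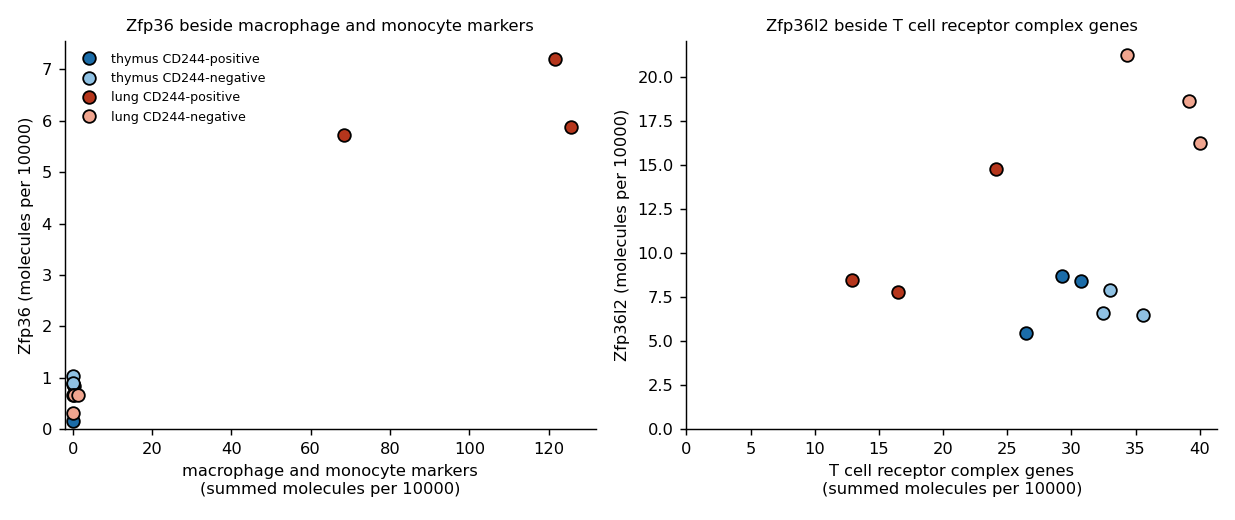
Left, molecules of Zfp36 against the sum of macrophage and monocyte markers; right, molecules of Zfp36l2 against the sum of T cell receptor complex genes, all per 10000 molecules of the library, 1 point for each of the 12 libraries. The 3 lung CD244+ libraries hold the highest marker sums (68.3 to 126) together with the highest Zfp36, and the lowest T cell receptor sums (12.9 to 24.2).

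In the thymus, the same contrast of CD244+ with CD244- cells called 0 of the 7 tested members with limma, and 0 members had an unadjusted p under 0.05. By edgeR on 9 libraries 0 members were called. Over all tested genes 0.409% were called, and 305 of 5138 had an unadjusted p under 0.05. Zfp36l1 had the largest difference at -0.54 (95% interval -1.09 to 0.01, limma adjusted p = 0.855). Btg1 differed by -0.21 (-0.52 to 0.10) with the CD244+ range below the CD244- range, as in 6.42% of tested genes. Zfp36 differed by -0.40 (-1.12 to 0.32), and without thymus CD244+ replicate 2, its lowest library, by 0.0028. Zfp36l2 differed by 0.08 (-0.32 to 0.47) and Btg2 by 0.01 (-0.54 to 0.56), while the intervals of Zc3h12a (-1.24 to 0.32) and Rc3h1 (-0.84 to 0.71) were wide. The median difference of the tested members was -0.21, against -0.02 over all tested genes.

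The CD244 difference itself was compared between the tissues by an interaction term, which shares all 12 libraries with the comparisons above. Zfp36 (3.09 ± 0.51, limma adjusted p = 9.47e-06) and Zfp36l2 (-0.95 ± 0.28, limma adjusted p = 0.0368) passed, 1 member upward and 1 downward of 7, against 2.65% and 0.623% of all tested genes. For Zfp36 the difference held in all 24 alternatives, with a largest adjusted p of 0.00811. Of these 24, the fit on only the libraries compared takes all 12 libraries here and repeats the main fit. On the T cell receptor scale, where the median of all genes was 0.58, 3 members were called upward and 0 downward. For Zfp36l2 the difference missed the threshold in 13 of 24, with adjusted p of 0.461 by edgeR and 0.917 on the T cell receptor scale. Leaving out 1 library ended the Zfp36l2 call for thymus CD244+ replicates 1 and 2, thymus CD244- replicates 2 and 3, lung CD244+ replicates 2 and 3, and lung CD244- replicates 1 and 3 (limma adjusted p from 0.0660 to 0.248). Zfp36l1 (0.82 ± 0.39, adjusted p = 0.352) and Zc3h12a (1.23 ± 0.56, adjusted p = 0.310) did not pass in limma.

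**Figure D3:**
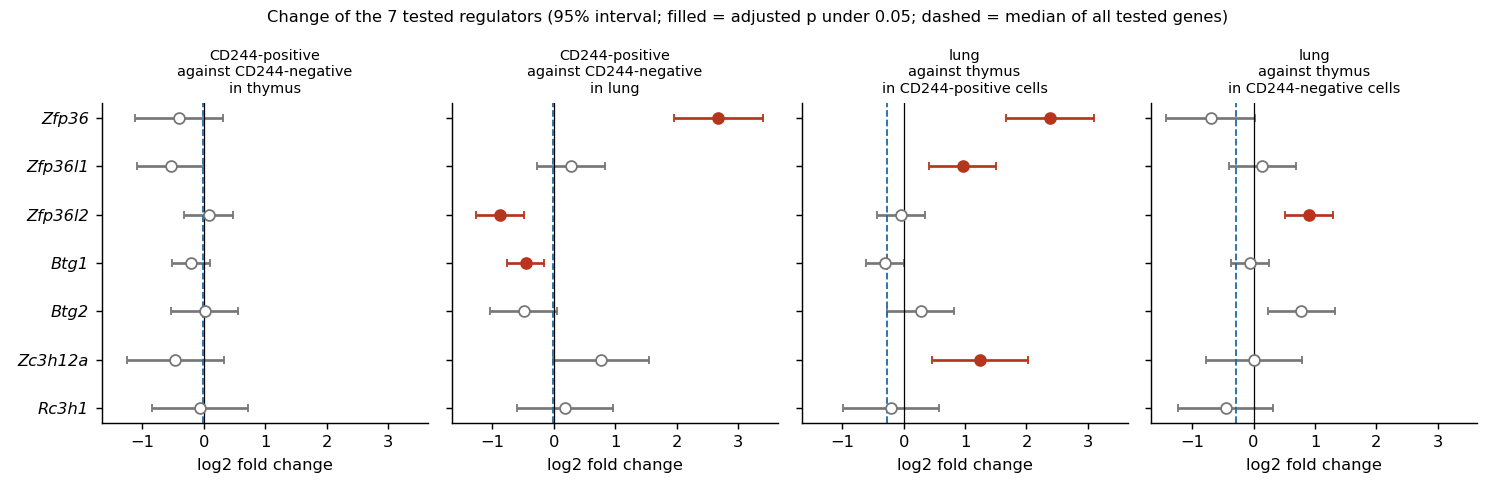
Differences in log2(value + 1) of the 7 tested members (x axis) with limma's 95% intervals in 4 comparisons. Filled points passed an adjusted p of 0.05 and the dashed line is the median of all 5138 tested genes; Zfp36 stands at 2.68 in the lung and at -0.40 in the thymus for CD244+ against CD244- cells.

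Lung against thymus within CD244+ cells, Zfp36, Zfp36l1 and Zc3h12a were higher in the lung and no member was lower. Zfp36 differed by 2.39 ± 0.36 (limma adjusted p = 1.21e-07), a molecule ratio of 10.1 with a counting interval of 5.49 to 20.2. Zfp36l1 differed by 0.96 ± 0.28 (limma adjusted p = 0.00802) and Zc3h12a by 1.24 ± 0.39 (limma adjusted p = 0.0194). This is 3 of 7 tested members higher, against 5.27% of all tested genes, while 9.61% of all tested genes were lower and the median of all was -0.27. Because the lung libraries sum to fewer units, that median moved to 0.00 when all libraries were set to 1 common total. The Zfp36l1 call was lost without thymus CD244+ replicate 1 (limma adjusted p = 0.144) or lung CD244+ replicate 2 (0.125). The Zc3h12a call was lost without thymus CD244+ replicate 1 (0.0831), thymus CD244+ replicate 3 (0.0800) or lung CD244+ replicate 3 (0.177). Zc3h12a entered the test only through the lung CD244+ libraries, where it is highest, so its passing is no support for the count of higher members. The Zc3h12a molecules numbered 13 against 1, a ratio of 17.5 with a counting interval of 2.62 to 742.

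Of the members that did not pass between the CD244+ groups, Btg1 differed by -0.31 (95% interval -0.61 to 0.00), with the lung range below the thymus range, as in 21.8% of tested genes. Zfp36, Zfp36l1 and Zc3h12a, the called members, had lung ranges above the thymus ranges, as in 8.41% of tested genes. With a common total Btg1 differed by 0.16 and by quantile normalization by 0.34, so its direction between tissues turned with the scaling. Zfp36l2 differed by -0.04 (-0.44 to 0.35) on the deposited scale and by 0.41 with a common total. By edgeR on 9 libraries Zfp36l2 differed by 0.76 (adjusted p = 0.0146). Btg2 (0.28, -0.27 to 0.83) and Rc3h1 (-0.21, -0.98 to 0.57) did not pass. The macrophage and monocyte markers, which entered the test only through the lung CD244+ libraries, were higher in this comparison in 13 of 13 tested genes. Of 11 T cell receptor complex genes 7 were lower. The part of either set in the member values was not tested.

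Lung against thymus within CD244- cells, where macrophage markers were near 0 in both groups, Zfp36l2 was the 1 member called. It differed by 0.91 ± 0.20 (limma adjusted p = 0.000462), with 172 molecules in the lung group and 136 in the deeper thymus group, a ratio of molecule shares of 2.67 (counting interval 2.12 to 3.37). Genes called higher made up 2.18% of all tested genes and genes called lower 8.52%, and the median of all was -0.29. The call held in all 24 alternatives, with a largest adjusted p of 0.0100. Btg2 differed by 0.78 ± 0.28 (limma adjusted p = 0.0524), and like Zfp36l2 had a lung range above the thymus range, as in 4.75% of tested genes. It passed in 12 of the 24 alternatives, with 1.21 (adjusted p = 0.00189) at a common total and 1.08 (adjusted p = 0.0101) by edgeR. It also passed without thymus CD244+ replicate 1, lung CD244- replicate 1, or any 1 of the lung CD244+ libraries (limma adjusted p from 0.0351 to 0.0433). Zfp36 differed by -0.70 (95% interval -1.42 to 0.02). In units its lung range lay below the thymus range as in 20.7% of tested genes, the lowest thymus library at 1.79 units and the highest lung library at 1.30. Per 10000 molecules these ranges overlapped, with the highest lung library at 0.673 and the lowest thymus library at 0.665. The molecules numbered 5 against 17, a ratio of shares of 0.621 (counting interval 0.179 to 1.75). Btg1 differed by -0.06 and did not pass, but its direction turned with the scaling, to 0.41 at a common total and 0.60 by quantile normalization (limma adjusted p = 0.00815), and its ratio of molecule shares was 1.34 (counting interval 1.12 to 1.61). Zfp36l1 (0.14), Zc3h12a (0.01) and Rc3h1 (-0.46) did not pass.

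Summed over the 8 genes, the members made up 26.4 to 29.3 molecules per 10000 in thymus CD244+ libraries, 28.3 to 32.9 in thymus CD244-, 41.4 to 47.1 in lung CD244+ and 49.8 to 56.6 in lung CD244- libraries. The lung libraries were each above the thymus libraries on this share of molecules, and the lung groups did not overlap. Btg1 and Zfp36l2 were the largest parts of the sum in every group, at 21.6 and 18.7 per 10000 in lung CD244- cells. Zfp36 was at 6.30 in lung CD244+ but at 0.543 in lung CD244- cells, against 0.874 in thymus CD244- cells. The sum therefore does not show that the members rose together. Within the ZFP36 family alone, Zfp36 supplied 22.05% to 36.3% of the family's molecules in lung CD244+ libraries, 1.28% to 3.03% in lung CD244- libraries and 1.39% to 9.62% in thymus libraries. Zfp36l2 supplied 36.7% to 56.7% in lung CD244+ libraries and 74.2% to 79.7% in lung CD244- libraries. Its thymus range, 57.1% to 80.1%, covered that of lung CD244- and lay just above that of lung CD244+.

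The enzymes and binding proteins that act with the members were examined as 6 lists, with 59 tested genes together. In the thymus 0 of the 59 passed with limma between the CD244 subsets, 4 had an unadjusted p under 0.05, and edgeR called 0 of the 10 it tested. In the lung 1 was higher and 2 were lower in CD244+ cells, and 13 had an unadjusted p under 0.05. Over all tested genes 5.61% were higher, 2.82% lower and 19.6% had such an unadjusted p, so these counts lie near the background. Of 12 tested genes of the CCR4-NOT and PAN deadenylases 1 was lower in lung CD244+ cells. That gene was Cnot6l, a catalytic deadenylase subunit, at 4.52 against 9.63 units (-0.96 ± 0.28, limma adjusted p = 0.0141). Its call was lost without lung CD244+ replicate 2 or lung CD244- replicates 1 or 3 (limma adjusted p from 0.0799 to 0.205). The list's median was 0.05 in the lung and 0.08 in the thymus. Of 15 genes of decapping and 5′ decay and 5 genes of nonsense-mediated decay, 0 passed with limma in the lung, and 1 gene of each list had an unadjusted p under 0.05. Of 12 exosome genes, Exosc2 alone passed, higher in lung CD244+ cells at 2.63 against 0.41 units (1.32 ± 0.41, limma adjusted p = 0.0250). That call was lost without lung CD244+ replicates 1 or 3 or lung CD244- replicate 1 (limma adjusted p from 0.0599 to 0.249). Medians for decapping (0.08), nonsense-mediated decay (0.10) and exosome genes (0.03) lay near that of all genes in the lung.

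Among 12 other AU-rich element and poly(A) binding proteins, 1 was lower in lung CD244+ cells. Pabpc1, the main cytoplasmic poly(A)-binding protein, was at 90.8 against 155 units in the lung (-0.77 ± 0.11, limma adjusted p = 1.42e-08), and the call held with each library left out. On the T cell receptor scale Pabpc1 differed by 0.35 (limma adjusted p = 0.104), below the median of all genes of 0.69. In the thymus it measured 165 and 161 units. Of 7 other genes of the member families and their relatives (Btg3 and Rc3h2 among them), 3 were tested and 0 passed with limma in the lung, 1 with an unadjusted p under 0.05. Between tissues, 1 of 12 deadenylase genes, 1 of 15 decapping genes, 1 of 12 exosome genes and 3 of 12 binding proteins were lower in lung within CD244+ cells, and 3 of 15 decapping genes were lower in lung within CD244- cells. Over all tested genes 9.61% and 8.52% were lower in these comparisons. Exosc4 and Pabpc4, counted within CD244+ cells, entered the test only through the thymus CD244+ libraries. Patl1, counted within CD244- cells, entered it only through the thymus CD244- libraries. The counts of lower exosome, binding protein and, within CD244- cells, decapping genes are therefore partly set by the filter. None of the 59 was higher in lung in either subset on the deposited scale, but at a common total the counts were 1 higher and 1 lower of 58 in each subset.

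Transcripts reported elsewhere as targets of the members moved in both directions. Of 20 such genes 10 were tested, and in the lung 4 were higher and 2 lower in CD244+ cells, against 5.61% and 2.82% of all tested genes. The higher genes were Fos (17.9 against 1.05 units), the chemokine gene Cxcl2 (14.5 against 0.20), Rel (2.04 against 0.20), a subunit of NF-kappaB, and the early response gene Ier3. All 4 entered the test only through the lung CD244+ libraries, where they are high, so their count is a description and no support. The lower genes were the costimulatory receptor gene Icos, a known Roquin target, at 4.82 against 24.7 units (-2.19 ± 0.28, limma adjusted p = 1.94e-09), and the survival gene Bcl2 at 2.64 against 7.76 units (-1.31 ± 0.30, limma adjusted p = 0.000794). Rel and Bcl2 lay outside the 4 smallest p-values and were named after their values were seen, to complete the count. The Rel call was lost without lung CD244+ replicates 2 or 3 or lung CD244- replicates 1 or 2 (limma adjusted p from 0.0623 to 0.114), and the Bcl2 call on the T cell receptor scale (0.360). In the thymus 1 of 10 passed. Icos was lower in thymus CD244+ cells at 3.17 against 8.996 units (-1.23 ± 0.28, limma adjusted p = 0.0141). That thymus call was lost without thymus CD244+ replicate 3 or thymus CD244- replicates 2 or 3 (limma adjusted p from 0.0786 to 0.336). In the thymus Fos and Cxcl2 were at 0 units in both groups. The macrophage and monocyte markers move with this comparison as given above, and their part in the target values was not tested.

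Zfp36, Btg2 and Ier3 are known as genes induced early after stimulation, and the immediate early list was therefore read beside them. Of its 24 tested genes, 9 were higher and 0 lower in lung CD244+ against lung CD244- cells, where 5.61% and 2.82% of all tested genes were called. Of the 24, 8 entered the test only through the lung CD244+ libraries (Fos, Fosb, Jun, Atf3 and Ier3 among them), so the count of higher genes is partly set by the filter. In the thymus 0 passed with limma (1 with an unadjusted p under 0.05) or with edgeR. In lung against thymus, 16 were higher and 1 lower within CD244+ cells, where 5.27% and 9.61% of all tested genes were called. Within CD244- cells 6 were higher and 2 lower, where 2.18% and 8.52% of all were called. Zfp36 and Btg2 are not on this list and are not in its counts. Zfp36 was called higher with CD244 in the lung and between the CD244+ groups, whereas Btg2 passed in none of these comparisons. The macrophage and monocyte markers were higher in 13 of 13 tested genes in both comparisons that involve the lung CD244+ libraries and in 0 of 13 within CD244- cells. These markers also entered the test only through the lung CD244+ libraries, so their counts were set by the filter and are a description. Their part in the list's counts was not tested.

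**Figure D4:**
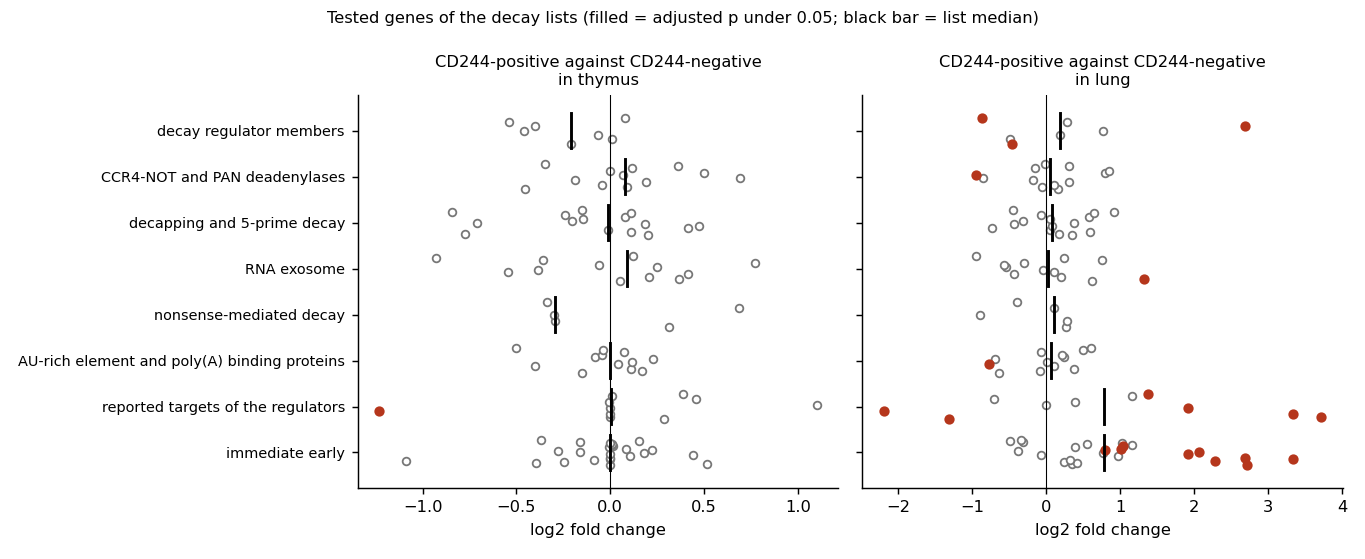
Points are differences in log2(value + 1), CD244+ against CD244- cells, in thymus and lung, with each list's median as a black bar. They show the tested members and the tested genes of the deadenylase, decapping, exosome, nonsense-mediated decay, binding protein, target and immediate early lists. Medians of the deadenylase, decapping, exosome and nonsense-mediated decay lists in the lung lie between 0.03 and 0.10, near the -0.01 of all tested genes. Of the target list 4 of 10 and of the immediate early list 8 of 24 genes entered the test only through the lung CD244+ libraries.

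The genes most like each member were found by the root mean square difference over the 12 libraries, after each gene was centred on its own mean log2(value + 1). Nearest to Zfp36 were Ifi30 (0.35), Nlrp3 (0.40), Cd68 (0.42), Plbd1 (0.42) and Sirpa (0.43), against a spread of Zfp36 itself of 1.15 (SD). All of these had their highest group mean in lung CD244+ cells, and Cd68 is one of the 16 macrophage and monocyte markers. Nearest to Zfp36l2 were Zbtb43 (0.19), Zc3hav1 (0.29), Retreg2 (0.29), Mgea5 (0.30) and Fam107b (0.30), each with its highest mean in lung CD244- cells. Nearest to Btg1 were Cd53 (0.12), Pkm (0.17), Psmb4 (0.19), Ppp1r9b (0.20) and Gnas (0.20), and the nearest to Btg2 was Stk4 (0.29), highest in lung CD244- cells as Btg2 was. The single nearest gene of Zfp36l1 (Mfsd5, 0.29), of Zc3h12a (Cnpy3, 0.29) and of Rc3h1 (Calu, 0.20) had low counts. Their further neighbours are not printed. All 12 libraries share the depth differences given above, and likeness is a description only.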

How the data were processed

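Per the labels' protocols, RNA of 100 sorted cells was reverse transcribed with oligo-dT primers carrying molecular barcodes, with template switching, PCR and ERCC spike-ins. The submitters' processing notes name STAR, with no version, and the build mm10. Counting, annotation and scaling are not given in the sources used here. The deposited table holds the authors' scaled signal per gene (24781 symbols, 0 ERCC rows). Dividing by each library's step gave molecules, whole for 94.3% to 95.9% of nonzero values (tolerance 1e-06).

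All 12 libraries were grouped from the labels and fitted in 1 limma 3.58.1 model (R 4.3.3; trend, robust) on log2(value + 1), over the 5138 genes above 1 unit in at least 3 libraries. Fold changes on this scale understate the changes of low genes. P-values were two-sided, adjusted by Benjamini-Hochberg over all tested genes, threshold 0.05. An exact test of 3 against 3 cannot go below 0.1. Intervals on molecule ratios are exact 95% binomial intervals and cover counting error only. The test was checked on simulated data with the same spread between replicates in every group. That check therefore did not cover the wider scatter of the lung CD244+ libraries.

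Alternatives were pseudocounts of 0.5 and 5, no filter, a filter above 5, quantile normalization, a common total of 23117 units, scaling to T cell receptor complex genes, quality weights, a replicate block, only the libraries compared, edgeR 4.0.16 (quasi-likelihood, TMM) on whole molecules of 9 libraries, and each library left out. The 3 libraries without checkable whole steps (1 each of thymus CD244+, thymus CD244- and lung CD244+) were not in the edgeR fit. One alternative, lung CD244+ replicate 1 alone, was chosen after seeing the data.

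The 8 members and all lists were chosen with earlier results of these data known. The rule named all members, list genes past the threshold (at most 4 per comparison by smallest p) and the 5 genes most like each tested member. Not all of the list genes and like genes are printed. Sequences were read from GRCm38 with GENCODE M21, and start-site windows from RefSeq (GRCm38.p6).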

Additional observations from a re-analysis of the deposited data

Results flagged for a closer look

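The CD244 difference of Zfp36 was unlike in the 2 tissues by an interaction term: the lung difference minus the thymus difference was 3.09 ± 0.51 (log2 of value + 1, limma adjusted p = 9.47e-06). The 3 lung CD244+ libraries lay above the 3 lung CD244- libraries, and the thymus groups overlapped. Zfp36l2 differed between tissues in the other direction, by -0.95 ± 0.28 (limma adjusted p = 0.0368), with lung CD244+ libraries below all lung CD244- libraries and overlapping thymus groups. That call for Zfp36l2 was lost in 13 of 24 alternatives, by edgeR (adjusted p = 0.461) and without any 1 of 8 of the 12 libraries among them. In the same interaction 13 of 13 tested macrophage and monocyte markers were higher, all of which entered the test only through the lung CD244+ libraries. The part of these markers in both results was not tested.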

How the results depend on the processing

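Of 213 values for the 9 member results past the threshold, 173 kept direction and call, 38 missed the threshold and 2 turned, and of 600 values for the 26 other member results, 538 kept both, 17 passed and 45 turned. The kept values include the interaction fit on only the libraries compared, which repeats the main fit. The causes of the changes were not tested. With edgeR on 9 libraries, 1 member passed in the lung, 1 in the interaction and 2 between the CD244- groups. With lung CD244+ replicate 1 alone (chosen after seeing the data, its spread assumed like that of the other groups), 1 passed in the lung, 1 in the interaction, 1 between the CD244+ groups and 2 between the CD244- groups. The interaction called 1 with a pseudocount of 0.5 or no filter. Between the CD244- groups 2 passed with a pseudocount of 5, the filter above 5, a common total or only the libraries compared, and 3 with quantile normalization. On the T cell receptor scale 4 members passed in the lung, 3 in the interaction and 6 between the CD244+ groups, all higher, while the medians of all tested genes there were 0.69, 0.58 and 0.48. Leaving out 1 library gave 0 members in the thymus, 2 to 3 in the lung, 1 to 2 in the interaction, 1 to 3 between the CD244+ groups and 1 to 2 between the CD244- groups.

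On the T cell receptor scale the values that turned were Zfp36l2 0.21, Btg1 0.64 and Btg2 0.56 in the lung; Btg1 0.011 and Rc3h1 0.065 in the thymus; Btg1 0.63 and Btg2 0.35 in the interaction; Zfp36l2 1.12, Btg1 0.88 and Rc3h1 0.56 between the CD244+ groups; Btg1 0.24 between the CD244- groups. Also on it, Pabpc1 turned to 0.35 in the lung, 0.085 in the interaction and 0.33 between the CD244+ groups, and Cnot6l to 0.0024 in the lung. With quantile normalization Zfp36l2 turned in the thymus (-0.0085), Zfp36l2 (0.37), Btg1 (0.34) and Pabpc1 (0.087) between the CD244+ groups, and Btg1 (0.60) between the CD244- groups. With a common total Zfp36l2 (0.41), Btg1 (0.16) and Rc3h1 (0.077) turned between the CD244+ groups and Btg1 (0.41) between the CD244- groups. With edgeR Zfp36l2 turned in the thymus (-0.0057) and between the CD244+ groups (0.76), and Btg1 between the CD244+ (0.24) and CD244- groups (0.32). Btg2 in the thymus turned with quality weights (-0.0035), Zc3h12a between the CD244- groups with a pseudocount of 0.5 (-0.045), and Zfp36l2 between the CD244+ groups with replicate 1 alone (0.50).

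With 1 library left out, turned values ran in the thymus from -0.62 to 0.0028 for Zfp36, -0.034 to 0.28 for Zfp36l2, -0.20 to 0.32 for Btg2 and -0.24 to 0.23 for Rc3h1. They ran from -0.048 to 0.42 for Rc3h1 in the interaction, -0.32 to 0.12 for Zfp36l2 and -0.027 to 0.45 for Btg2 between the CD244+ groups, and between the CD244- groups from -0.021 to 0.42 for Zfp36l1, -0.12 to 0.045 for Btg1 and -0.27 to 0.33 for Zc3h12a.

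No pairing by replicate number was seen. Deviations from group means in 18 same-numbered pairs correlated from -0.0284 to 0.0157, and 5 of 18 correlated best with their own number. Outside the lung CD244+ group, scatter between replicates lay near counting error, so such low correlations cannot show that the samples were unpaired. A fit with the replicate block called 0 members in the thymus, 3 in the lung, 2 in the interaction, 3 between the CD244+ groups and 1 between the CD244- groups. Depth limits Zc3h12a, Zc3h12d and Rc3h1 most, with at most 14 molecules a group.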

Other observations

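A list of 9 genes tied to T cell quiescence, the state that BTG and ZFP36 proteins are known to help keep, was measured in full. Of the 9, Klf2, a transcription factor of resting and recirculating lymphocytes, was higher in thymus CD244+ than CD244- cells at 5.28 against 0.70 units (1.96 ± 0.36, limma adjusted p = 0.000208), and the call held with each library left out. Over all tested genes 0.409% were called in the thymus. In the lung Klf2 was at 7.99 against 3.97 units (0.78 ± 0.36, limma adjusted p = 0.196), and 0 of the 9 genes passed there with limma (3 with an unadjusted p under 0.05) or, of the 5 it tested, with edgeR. Over all tested genes in the lung 5.61% were higher, 2.82% lower and 19.6% had such an unadjusted p. Within CD244- cells Klf2 was higher in lung than thymus (1.59 ± 0.36, limma adjusted p = 0.000634), where 2.18% of all tested genes were called higher and 8.52% lower. The list's median was 0.18 in the thymus and 0.31 in the lung, against -0.02 and -0.01 over all tested genes.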
